A study of Ovis aries with 12 samples.

Results

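Fibroblast growth factor (FGF) signalling genes were followed in sheep (Ovis aries) embryos of 2 breeds and 2 ages. They were taken from the deposited gene table by symbol: the numbered FGF genes, the receptors FGFR1 to FGFR4, the Sprouty (SPRY) and Spred (SPRED) inhibitors, and DUSP6, ETV4 and ETV5. The rule found 30 of the 26247 genes listed, namely 13 secreted ligands, 2 endocrine ligands, 2 intracellular FGFs, 4 receptors, 3 Sprouty and 3 Spred genes, 1 phosphatase and 2 ETS factors. FGF3, FGF4 and SPRY4 are not analysed here. The embryos were of Hulunbuir short-tail sheep or of Ujumqin sheep, which the labels name as control, and were taken at day 16 or day 25. The embryos were dissociated enzymatically into single cells and their RNA was sequenced in bulk, with 3 libraries in each of the 4 groups. The labels give no genotype or treatment apart from breed and age. Whether the 3 libraries in a group stem from different animals is not stated, and the p-values therefore measure only the spread between these samples, which may be technical.

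FGF ligands are secreted proteins that bind tyrosine kinase receptors together with heparan sulfate on the cell surface, and the activated receptor passes its signal through RAS to the kinase ERK. ERK activity switches on the ETS transcription factors ETV4 and ETV5 and also the inhibitors that limit it, among them the phosphatase DUSP6 and the Sprouty and Spred proteins, so these genes serve widely as readouts of FGF signalling. In vertebrate embryos the pathway is known for its roles in gastrulation, elongation of the tail end of the axis, limb outgrowth and patterning of the brain.

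Library totals ran from 30464606 to 55455815 gene counts, so that 3 counts stood for 0.0541 to 0.0985 CPM (counts scaled to the library total). Levels are given as deposited FPKM (fragments scaled to gene length and to library size), which allow for gene length. Changes are log2 differences with their standard errors, from an edgeR quasi-likelihood fit to the counts. A gene was called where the p adjusted over all 14595 genes tested was under 0.05. Of the 30 FGF genes, 22 passed the filter of at least 1 FPKM in at least 3 libraries and were tested. The biological coefficient of variation, the spread between replicates beyond counting error, was 43.8% at day 16 and 18.1% at day 25, so each breed comparison used the 6 libraries of its own age. Age changes and their difference between the breeds used all 12 libraries. Their standard errors and p-values rest on 1 estimate of the spread per gene for both ages, although the spreads are unlike. Deposited FPKM are scaled by library size alone: at day 25 their median log2 ratio between the breeds was 0.36, against 0.03 for the fitted change. A gene equal in the fit therefore reads somewhat higher by FPKM in Hulunbuir day 25 embryos.

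Markers of other tissues moved with the groups. Of 9 erythroid genes tested, 8 were higher in Hulunbuir embryos at day 25, beside 23.3% of all genes. Their summed level there was 15486 to 18310 FPKM against 1870 to 2387 in Ujumqin. At day 16 the same sum was 856 to 3805 FPKM in Ujumqin and 81.1 to 153 in Hulunbuir. Yolk sac and liver genes were higher at day 25 for 9 of 14 and lower for 1, with sums of 18249 to 19728 FPKM in Hulunbuir and 4787 to 7238 in Ujumqin. Trophoblast genes fell with age for 9 of 12 in Ujumqin, from a sum of 2096 to 4387 FPKM to one of 397 to 670, and for 6 of 12 in Hulunbuir, from 2014 to 6122 to 535 to 582, beside falls of 32.9% and 21.6% of all genes. At day 25, 7 of the 12 were lower and 1 higher in Hulunbuir, beside 22.7% and 23.3%. None of these 3 lists had a marker at 0 counts in all 12 libraries. All 6 neural tube genes rose with age in Ujumqin, beside 30.7% of all genes, from a sum of 31.2 to 93.3 FPKM to one of 185 to 202. Of the 6, 2 rose in Hulunbuir, beside 18.9% of all genes, from a sum of 77.8 to 293 FPKM to one of 336 to 347. Heart genes summed to 73.6 to 229 FPKM in Ujumqin and 546 to 1190 in Hulunbuir at day 16, where edgeR called none of the 5 and 4 had an unadjusted p under 0.05. Markers of the embryo itself did not all hold in each group. TBXT of the tail bud had means of 0.171 and 0.256 FPKM at day 25, whereas SOX2 of the neural tube had group means from 4.05 to 31.5. NKX2-5 of the heart averaged 0.478 FPKM in Ujumqin day 25 embryos, and MYF5 of the somites 0.746 in Ujumqin day 16 embryos. The lowest group means of PAX6, HAND2 and EPCAM were 2.12, 33.6 and 26.1 FPKM. The 9 tail bud genes tested did not all go with TBXT. With age 3 rose and 2 fell in Ujumqin, beside 30.7% and 32.9% of all genes, from a sum of 17.9 to 40.5 FPKM to one of 37.9 to 48.0. In Hulunbuir 2 rose and 2 fell, beside 18.9% and 21.6%, from 37.1 to 97.9 FPKM to 56.4 to 66.3. In bulk RNA, fewer cells of a type and less RNA per cell cannot be told apart, and the part of tissue make-up in the results below was not tested.

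No FGF gene was called between the breeds at day 16, and the calls fell to age and to breed at day 25. At day 16 edgeR called 0 of 22 in the 6 libraries, beside 3 of all genes (0.0206%). With the replicate number as a block it called 0 beside 293. Libraries with the same number correlated at that age, and the part of this in the 293 calls was not tested. Without adjustment 5 of 22 had p under 0.05, as did 2955 of all genes, while DESeq2 called 3 members and voom with group weights 2. When all 12 libraries shared 1 estimate of the spread, 5 members were called at day 16 (FGFR1, FGF8 and ETV4 higher, SPRY3 and FGF12 lower in Hulunbuir), beside 16.8% of all genes. At day 25, 7 of 22 (31.8%) were higher in Hulunbuir embryos, namely SPRY3, SPRED2, FGFR4, FGFR3, DUSP6, FGF2 and SPRY2, and 1 (4.55%) was lower, FGFR2. Among all genes 23.3% were higher and 22.7% lower. With total counts as the only scaling, 11 members were higher and 0 lower, and of all genes 6049 were higher and 1483 lower, beside 3397 and 3319. The 12-library fit called 3 of them at day 25, SPRY3, SPRED2 and FGFR3, beside 16.7% of all genes.

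From day 16 to day 25, 6 of 22 members (27.3%) rose in Ujumqin embryos and 8 (36.4%) fell, beside 30.7% and 32.9% of all genes. In Hulunbuir embryos 2 (9.09%) rose and 6 (27.3%) fell, beside 18.9% and 21.6%. These shares lie near those of all genes in most directions, and the list as a whole is not set apart by them. ETV4 and FGF18 rose in both breeds, and ETV5, FGF10, SPRED1 and SPRED2 fell in both. The age changes of 3 members differed between the breeds, SPRY3 and FGFR3 upwards in Hulunbuir relative to Ujumqin and FGF8 downwards, beside 8.89% and 10.3% of all genes in those directions.

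**Figure D1:**
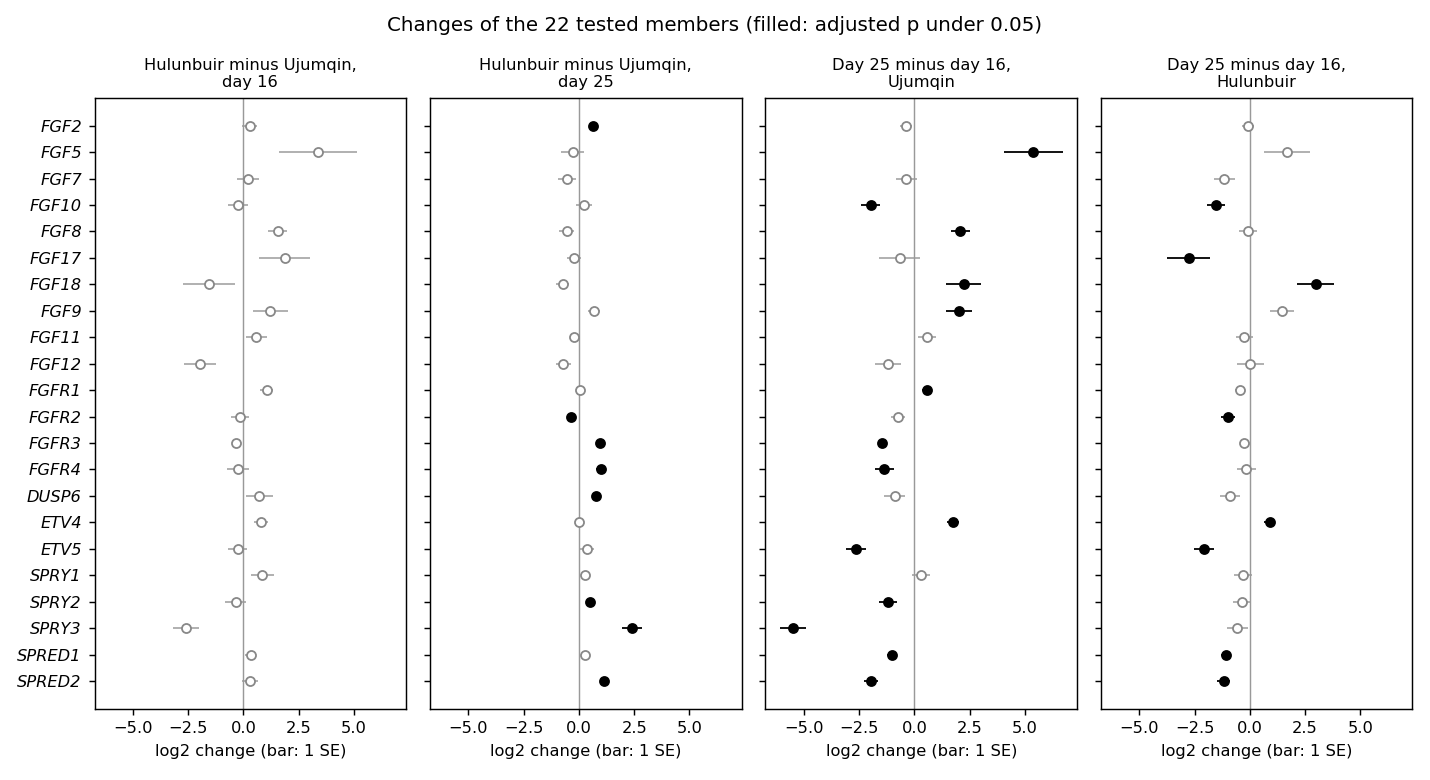
Log2 change (horizontal axis) of the 22 tested FGF pathway genes in 4 comparisons, each point with a bar of 1 standard error; filled points have an adjusted p under 0.05. No point is filled for breed at day 16, 8 are filled for breed at day 25, 14 for the Ujumqin age change and 8 for the Hulunbuir one.

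More secreted ligands reached 1 FPKM at day 25 than at day 16: 4 to 5 of 13 in a Ujumqin library and 5 to 6 in a Hulunbuir library at day 16, and 7 to 8 in either breed at day 25. Of the 8 that were tested, FGF10 fell in both breeds, FGF5, FGF8, FGF9 and FGF18 rose in Ujumqin, and FGF2 was higher in Hulunbuir at day 25.

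FGF10 (chromosome 16, 30468674 to 30562188 on Oar_v3.1), a mesenchymal ligand needed for limb and lung buds, fell in both breeds. At day 16 it stood at 10.8, 4.03 and 12.04 FPKM in the 3 Ujumqin libraries and at 6.26, 7.27 and 10.3 in the Hulunbuir libraries. At day 25 the values were 2.03, 1.25 and 2.78 in Ujumqin and 3.00, 3.04 and 2.98 in Hulunbuir, so that no day 25 library reached the lowest day 16 library of its breed. The log2 change with age was -1.98 ± 0.42 in Ujumqin (adjusted p = 0.0019) and -1.54 ± 0.42 in Hulunbuir (adjusted p = 0.013).

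FGF8 (chromosome 22, 21678317 to 21686777), the ligand of the tail bud, limb ridge and midbrain-hindbrain boundary, was lowest in Ujumqin day 16 embryos. In Ujumqin its level was 0.713, 0.449 and 0.476 FPKM at day 16 and 1.07, 2.71 and 2.45 at day 25 (log2 change 2.08 ± 0.43, adjusted p = 0.0016). Hulunbuir libraries had 2.30, 1.61 and 1.11 FPKM at day 16 and 1.55, 2.28 and 1.52 at day 25, and the 2 ages overlap (-0.09 ± 0.42, adjusted p = 0.889). The age changes of the breeds differed by -2.16 ± 0.60 (adjusted p = 0.028), a call that was lost with voom (0.148) and without any 1 of 6 libraries, with adjusted p from 0.0545 to 0.0822. At day 16 all 3 Hulunbuir libraries lay above all 3 Ujumqin libraries, with a log2 difference of 1.55 ± 0.43 and an adjusted p of 0.139. That difference was called by DESeq2 (0.011) and by the 12-library fit (0.0309). At day 25 the breeds differed by -0.56 ± 0.35 (adjusted p = 0.224), and leaving out Ujumqin replicate 1, the lowest of its group, gave -0.90 and 0.00512.

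FGF17, a close relative of FGF8, was set by 1 library. Its day 16 values were 4.62, 1.96 and 3.096 FPKM in Ujumqin and 31.3, 4.62 and 0.692 in Hulunbuir, where replicate 1 stands far above the rest. The day 25 levels were 1.64, 2.26 and 1.59 FPKM in Ujumqin and 1.69, 2.56 and 1.78 in Hulunbuir. It was called lower with age in Hulunbuir (-2.77 ± 0.97, adjusted p = 0.0397). Without Hulunbuir day 16 replicate 1 the change was -0.71 and the adjusted p 0.455, and without Hulunbuir day 25 replicate 1, 2 or 3 the adjusted p was 0.113, 0.0859 and 0.111. The libraries of the 2 ages overlap. FGF18, another ligand of this subfamily, with roles in skeleton and lung, rose in both breeds. It was at 1.05, 0.222 and 0.761 FPKM in Ujumqin and 0.295, 0 and 0.457 in Hulunbuir at day 16. At day 25 it reached 3.29, 2.31 and 3.04 in Ujumqin and 1.77, 2.30 and 2.44 in Hulunbuir, above all day 16 libraries. The log2 changes were 2.23 ± 0.79 (adjusted p = 0.0277) and 2.99 ± 0.84 (adjusted p = 0.0151). The Ujumqin call was lost without day 16 replicate 2 (0.0754) or day 25 replicates 1 (0.0635) or 3 (0.0674).

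FGF9, a ligand of epithelia and of the developing gonad, was at 0.169, 0.165 and 0.833 FPKM in Ujumqin and 1.22, 0.596 and 1.12 in Hulunbuir at day 16. At day 25 it stood at 1.42, 1.44 and 1.52 in Ujumqin, a rise of 2.02 ± 0.58 (adjusted p = 0.00973). In Hulunbuir it stood at 2.89, 2.54 and 3.53, and neither this age change (1.45 ± 0.55, adjusted p = 0.056) nor the day 25 breed difference (0.69 ± 0.28, adjusted p = 0.0783) was called by edgeR. DESeq2 (0.0263), the 6 libraries of the breed (0.022), voom (0.046) and total counts (0.0484) called the Hulunbuir age change, and total counts (0.0168) the breed difference. FGF5, known for ending the growth phase of hair and also an early epiblast ligand, was nearly absent from Ujumqin embryos at day 16, with 4 counts in replicate 1 (0.118 FPKM) and 0 in the other two. Its Hulunbuir values at day 16 were 0.883, 0 and 0.642 FPKM. By day 25 it stood at 0.665, 1.86 and 2.43 FPKM in Ujumqin and 1.65, 1.42 and 2.20 in Hulunbuir. The rise in Ujumqin was called (adjusted p = 0.00461). Its fitted size, 5.38 ± 1.34, depends on the prior count, since it starts from a group with so few counts. In Hulunbuir the change was 1.67 ± 1.05 (adjusted p = 0.224).

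FGF2 (chromosome 17, 34113507 to 34661626), a broadly made growth factor that leaves cells without a signal peptide, was the ligand called between the breeds at day 25. Hulunbuir libraries had 4.19, 3.96 and 4.26 FPKM and Ujumqin libraries 2.37, 1.82 and 2.19, with no overlap. The log2 difference was 0.63 ± 0.14 (adjusted p = 0.00601), and the 12-library fit did not call it (0.15). At day 16 the values were 2.13, 2.46 and 4.72 in Ujumqin and 3.27, 3.30 and 5.40 in Hulunbuir, and the groups overlap. The FGF2 model is long and shares 56029 bases with the opposite-strand gene NUDT6. As the use of strand in counting is not given, reads of these genes cannot be told apart there. NUDT6 itself differed by -0.31 ± 0.15 at day 25 (adjusted p = 0.12). FGF7, the keratinocyte growth factor, ranged from 0.634 FPKM in Ujumqin day 25 replicate 2 to 2.62 in Hulunbuir day 16 replicate 3. Its group means were 1.66 ± 0.48 (SD, n = 3) and 1.99 ± 0.84 at day 16 in Ujumqin and Hulunbuir, and 1.15 ± 0.53 and 0.995 ± 0.226 at day 25. In the 5 comparisons its adjusted p was never under 0.0729, although leaving out Hulunbuir day 16 replicate 1 gave 0.0298 for age in Hulunbuir.

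The intracellular FGFs are not secreted and are known for binding sodium channels in neurons. FGF11 was at 5.25, 1.55 and 5.41 FPKM in Ujumqin and 5.62, 5.66 and 7.86 in Hulunbuir at day 16. Its day 25 values of 6.83, 4.97 and 4.56 and of 6.71, 6.30 and 4.64 overlap almost wholly, and no comparison called it. FGF12 was highest in Ujumqin day 16 embryos, at 11.2, 4.97 and 2.25 FPKM, against 1.74, 2.19 and 0.842 in Hulunbuir. These groups do not overlap, but the difference of -1.97 ± 0.73 had an adjusted p of 0.203 (0.0467 in the 12-library fit). At day 25 FGF12 was at 2.87, 2.34 and 2.20 in Ujumqin and 2.37, 2 and 1.29 in Hulunbuir. Its age change in Ujumqin was -1.19 ± 0.59 (adjusted p = 0.0987), and 0.0207 without day 16 replicate 3.

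The other 7 FGF genes never reached 1 FPKM and were not tested. FGF6, a ligand of muscle, had 0 counts in all 12 libraries, each of which allows up to 3 counts. FGF16, a ligand of heart, had 8 counts in Ujumqin day 25 replicate 3 and 0 elsewhere. FGF20 had a count only in Hulunbuir libraries, from 0.077 to 0.479 FPKM in 5 of them, and 0 counts in all 6 Ujumqin libraries. The 5 libraries held 21 counts in Hulunbuir day 16 replicate 3 and 4 counts in each of the others, close to the 3 counts that a 0 allows. FGF1 was highest in Ujumqin day 16 replicates 1 and 2 (0.534 and 0.47 FPKM), and FGF22 in Hulunbuir day 25 replicate 1 (0.801 FPKM). The endocrine ligands FGF21, made by liver, and FGF23, the phosphate-regulating hormone of bone, peaked at 0.637 and 0.873 FPKM, each in a single day 25 library.

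**Figure D2:**
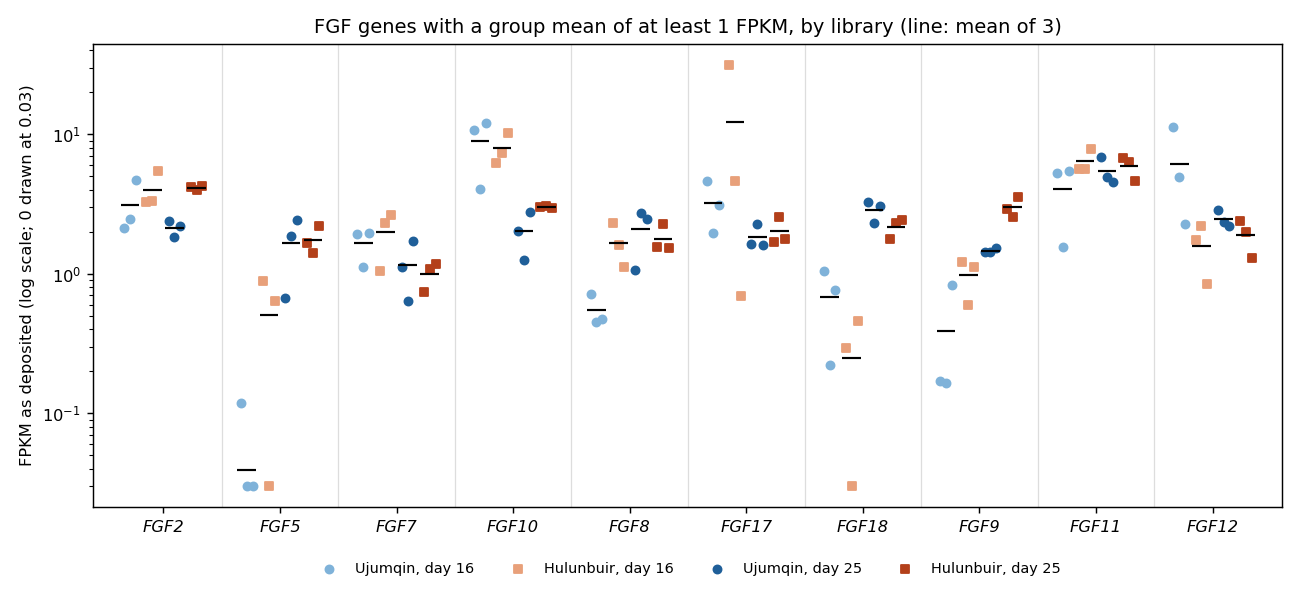
Deposited FPKM (log axis, 0 drawn at 0.03) of the 10 FGF genes with a group mean of at least 1 FPKM, 1 point per library in 4 groups with a line at each mean. FGF10 drops from day 16 to day 25 in both breeds, FGF18 climbs in both, and Hulunbuir day 16 replicate 1 stands apart for FGF17 at 31.3 FPKM.

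FGFR1 was the most abundant receptor in every group, and its mean share of the receptors was lowest in Ujumqin day 16 embryos. It took 47.8% ± 12 (SD, n = 3) of the summed receptor FPKM there, against 69.4% ± 7.09 in Hulunbuir day 16, 74.6% ± 0.501 in Ujumqin day 25 and 71.2% ± 1.35 in Hulunbuir day 25. FGFR2 came first in 1 library, Ujumqin day 16 replicate 2, with 40.0% against 36.1% for FGFR1. FGFR3 made up 20.9% ± 4.55 of the sum in Ujumqin day 16 embryos and 7.63% ± 0.758 in Ujumqin day 25 embryos. In Hulunbuir its share was 11.3% ± 0.738 at day 16 and 13.3% ± 1.32 at day 25. The smallest part was FGFR4, with group means between 2.4% and 6.42%.

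**Figure D3:**
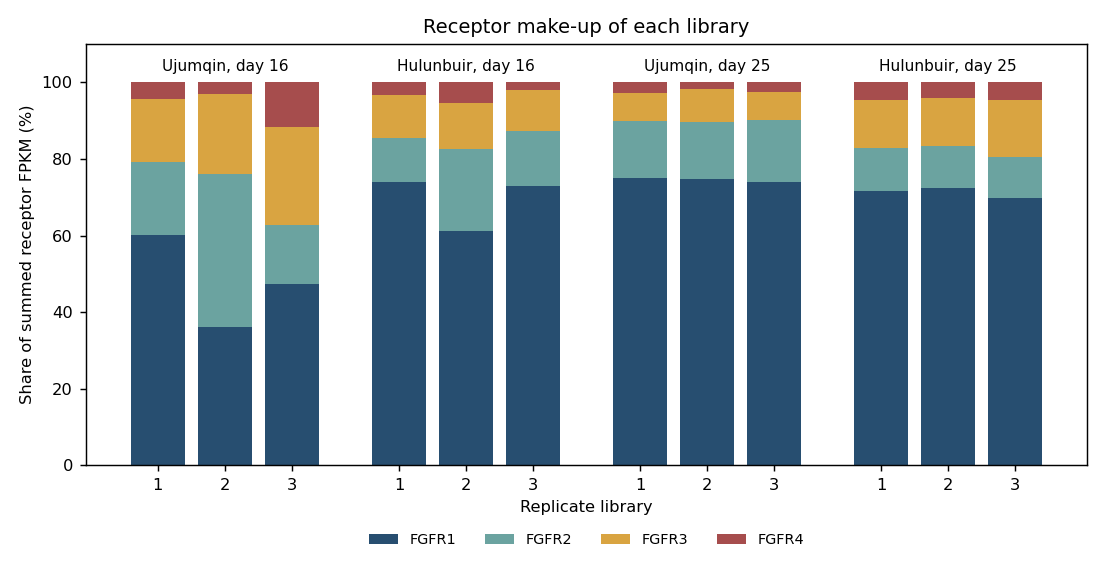
Share of the summed FPKM of FGFR1 to FGFR4 taken by each receptor (vertical axis, percent), 1 stacked bar per library. FGFR1 takes 36.1% to 60.1% in the 3 Ujumqin day 16 libraries and 61.2% to 75.0% in the other 9.

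FGFR1 (ENSOARG00000001576, chromosome 26, 32193842 to 32208102), the main receptor of mesoderm, was at 58.7, 29.2 and 35.7 FPKM in Ujumqin and 106, 64.2 and 102 in Hulunbuir at day 16. Every Hulunbuir library lay above every Ujumqin library, but the difference of 1.04 ± 0.31 had an adjusted p of 0.154 in the 6 libraries of that age. DESeq2 (0.0259), the 12-library fit (0.0152) and voom with group weights (0.0404) called it. At day 25 its FPKM were 67.1, 51.0 and 50.2 in Ujumqin and 76.1, 71.2 and 72.2 in Hulunbuir, with a fitted difference of 0.06 ± 0.09 (adjusted p = 0.606). Scaling by total counts alone (0.0224) or leaving out Ujumqin day 25 replicate 1 (0.0338) called it higher in Hulunbuir. The rise with age in Ujumqin was small, 0.57 ± 0.23 (adjusted p = 0.0489). It was lost with total counts (0.118), no filter (0.109), filterByExpr (0.067) or the 6 libraries of the breed (0.103), without day 16 replicates 2 (0.161) or 3 (0.145) and without day 25 replicates 1 (0.18), 2 (0.0928) or 3 (0.0878). In Hulunbuir the age change was -0.45 ± 0.23 (adjusted p = 0.144), and the difference between these age changes, -1.02 ± 0.33, was not called (adjusted p = 0.0501). It was called with the replicate block (0.0214), DESeq2 (0.0203), voom (0.0233) and RLE scaling (0.0496), and without Ujumqin day 16 replicate 1 (0.00612) or Hulunbuir day 16 replicate 2 (0.0426). FGFR1 lies wholly within the same-strand model of NSD3, and reads from their shared bases can be assigned to either. NSD3 did not follow it at day 16, with 14.5 ± 2.16 FPKM in Ujumqin and 14.2 ± 4.63 in Hulunbuir.

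FGFR2 (chromosome 22, 40407331 to 40510126), a receptor of epithelia and limb, fell with age in Hulunbuir embryos. Its values were 18.7, 32.4 and 11.6 FPKM in Ujumqin and 16.2, 22.4 and 20.4 in Hulunbuir at day 16, and 13.3, 10.3 and 11.01 and 11.9, 10.8 and 11.2 at day 25. The log2 change was -0.98 ± 0.32 in Hulunbuir (adjusted p = 0.0321) and -0.74 ± 0.32 in Ujumqin (adjusted p = 0.0618), where replicate 3 of day 16 is low and the ages overlap. The difference between these changes was -0.23 ± 0.45 (adjusted p = 0.752). Without Hulunbuir day 16 replicate 2 the Hulunbuir call was lost (0.105), as it was without day 25 replicates 1, 2 or 3 (0.0746, 0.0911 and 0.0837) or with total counts (0.0606). Without Ujumqin day 16 replicate 3 the Ujumqin fall was called (0.00352). At day 25 FGFR2 was called lower in Hulunbuir (-0.36 ± 0.09, adjusted p = 0.0121; 0.424 in the 12-library fit and 0.0726 with voom), although the deposited FPKM of the breeds overlap. With total counts the difference was -0.04 and the adjusted p 0.795.

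FGFR3 (ENSOARG00000015904, chromosome 6, 116114542 to 116120254), a receptor known for restraining bone growth and made in neural tissue, parted the breeds at day 25. Ujumqin libraries fell from 16.1, 16.9 and 19.3 FPKM at day 16 to 6.53, 5.80 and 4.81 at day 25, a log2 change of -1.47 ± 0.15 (adjusted p = 1.31e-05). Hulunbuir libraries were at 15.9, 12.7 and 15.0 at day 16 and at 13.2, 12.4 and 15.4 at day 25, and the ages overlap (-0.24 ± 0.14, adjusted p = 0.198). At day 25 each Hulunbuir library held more than the highest Ujumqin library, with a difference of 0.93 ± 0.13 (adjusted p = 0.000693). The age changes differed by 1.23 ± 0.21 (adjusted p = 0.00361). These calls for Ujumqin age, day 25 breed and their difference were kept under each other setting and with any 1 library left out. FGFR3 lies inside the model of an unnamed same-strand gene, which had at most 11 counts in a library. FGFR4, a receptor of liver, muscle and endoderm, was at 4.25, 2.54 and 8.89 FPKM in Ujumqin and 4.90, 5.56 and 2.86 in Hulunbuir at day 16. At day 25 it was at 2.49, 1.21 and 1.79 in Ujumqin and 4.99, 4.05 and 4.76 in Hulunbuir, higher in Hulunbuir by 1.01 ± 0.23 (adjusted p = 0.00802; 0.153 in the 12-library fit). Yolk sac and liver genes were higher in the same libraries, as given above, and their part in the FGFR4 difference was not tested. Its fall with age in Ujumqin (-1.35 ± 0.44, adjusted p = 0.019) was lost without day 16 replicate 3 (0.1) or day 25 replicate 2 (0.0653).

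Of the 6 tested feedback inhibitors, SPRY2, SPRY3, SPRED2 and DUSP6 were called higher in Hulunbuir at day 25, and SPRY1 and SPRED1 were not called, beside 23.3% of all genes called higher. With total counts as the only scaling SPRY1 (0.0135) and SPRED1 (0.0218) were called higher as well. The summed Sprouty level was 16.9 ± 1.93 FPKM in Ujumqin and 30.2 ± 3.50 in Hulunbuir at day 25, against 46.2 ± 1.54 and 34.4 ± 5.82 at day 16.

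SPRY3 (ENSOARG00000006314, chromosome X, 76148797 to 76149663) had large fitted changes for breed at day 25, for age in Ujumqin and for the difference of age changes. Like other Sprouty proteins it restrains signalling from receptor tyrosine kinases. In Ujumqin embryos it was at 7.51, 12.7 and 23.2 FPKM at day 16 and at 0.242, 0.257 and 0.294 at day 25, from 346 to 1184 counts at the first age and from 8 to 10 at the second. Hulunbuir libraries had 1.52, 3.71 and 1.94 FPKM at day 16 and 1.46, 2.56 and 1.57 at day 25, a range that the 2 ages share. Thus Ujumqin libraries all lay above Hulunbuir libraries at day 16 and all below them at day 25. The age change was -5.50 ± 0.59 in Ujumqin (adjusted p = 1.94e-05) and -0.56 ± 0.48 in Hulunbuir (adjusted p = 0.371), a difference of 4.94 ± 0.74 (adjusted p = 0.00205). At day 25 the breed difference was 2.39 ± 0.46 (adjusted p = 0.00329). The day 16 difference of -2.60 ± 0.57 was not called in the 6 libraries (adjusted p = 0.12), but was by DESeq2 (0.000283), the 12-library fit (0.00856) and voom (0.0419). The annotated SPRY3 model spans only 867 bases.

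SPRY2 (chromosome 10, 55821641 to 55822306), an inhibitor of FGF signalling in limb, ear and lung, had the highest Sprouty FPKM in 10 of 12 libraries. This rank depends on the annotated models, as that of SPRY2 spans only 666 bases and that of SPRY1 3420. SPRY2 was at 35.3, 31.6 and 11.7 FPKM in Ujumqin and 19.4, 27.6 and 17.0 in Hulunbuir at day 16. At day 25 Hulunbuir libraries, at 22.7, 15.8 and 18.8, lay above Ujumqin libraries, at 11.4, 11.2 and 9.18. The difference of 0.52 ± 0.17 was called narrowly (adjusted p = 0.0315). It was lost with the replicate block (0.0502), in the 12-library fit (0.434), with voom (0.184), and without Ujumqin day 25 replicate 3 (0.0919) or Hulunbuir day 25 replicates 1 (0.138) or 3 (0.0796). The fall with age in Ujumqin (-1.19 ± 0.40, adjusted p = 0.0224) was lost with voom (0.0529) and without day 16 replicates 1 (0.0783) or 2 (0.0679) or day 25 replicate 3 (0.0617). SPRY1, which limits growth of the kidney ducts among other organs, was at 2.89, 3.61 and 10.1 FPKM in Ujumqin and 6.95, 7.58 and 17.5 in Hulunbuir at day 16. At day 25 the values were 7.35, 5.11 and 5.74 and 9.59, 8.37 and 9.69. None of its comparisons was called (adjusted p = 0.132 for breed at day 25). With total counts the day 25 difference was called (0.0135), as it was without Ujumqin day 25 replicate 1 (0.024). For age in Ujumqin and for the difference of age changes, leaving out Ujumqin day 16 replicate 3 gave 0.0191 and 0.0449. SPRY1 and FGF2 are neighbours on chromosome 17, 61467 bases apart.

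SPRED1 and SPRED2, membrane-bound inhibitors that bring a RAS-inactivating protein to RAS, fell with age in both breeds. SPRED1 was at 16.9, 10.7 and 17.5 FPKM in Ujumqin and 18.6, 14.8 and 26.9 in Hulunbuir at day 16, and at 7.95, 5.39 and 6.91 and 11.98, 9.05 and 10 at day 25. Within each breed the ages do not overlap, with changes of -1.01 ± 0.22 in Ujumqin (adjusted p = 0.00199) and -1.09 ± 0.22 in Hulunbuir (adjusted p = 0.00274). These differed by -0.08 ± 0.31 (adjusted p = 0.888). SPRED2 (chromosome 3, 42867131 to 42897972) went from 11.3, 7.09 and 12.3 to 3.02, 2.16 and 1.91 FPKM in Ujumqin and from 16.4, 6.60 and 18.3 to 7.25, 6.21 and 6.17 in Hulunbuir. These are changes of -1.97 ± 0.32 (adjusted p = 0.000276) and -1.18 ± 0.31 (adjusted p = 0.0103). Hulunbuir day 16 replicate 2 lies within the range of its day 25 libraries. SPRED2 was higher in Hulunbuir at day 25 by 1.15 ± 0.20 (adjusted p = 0.00218), and that call was kept under each other setting and with any 1 library left out. SPRED1 differed by 0.29 ± 0.16 at day 25 (adjusted p = 0.181, and 0.0218 with total counts). SPRED3, mainly a brain gene, reached 1 FPKM in 2 libraries and was not tested. It was at 0.731, 0.409 and 0.678 FPKM in Ujumqin and 2.04, 0.576 and 1.13 in Hulunbuir at day 16, and at 0.176, 0.172 and 0.261 and 0.42, 0.496 and 0.42 at day 25.

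DUSP6 (chromosome 3, 125586852 to 125589854), the phosphatase that removes the activating phosphates of ERK, varied widely between day 16 libraries. It was at 10.5, 5.94 and 26.6 FPKM in Ujumqin and 38.5, 10.4 and 26.4 in Hulunbuir. At day 25 the libraries were tight, at 7.34, 6.48 and 6.90 in Ujumqin and 14.8, 14.0 and 15.1 in Hulunbuir. The day 25 difference was 0.76 ± 0.10 (adjusted p = 0.000676). It was not called in the 12-library fit (0.322) or with voom (0.0514). Its age changes were -0.88 ± 0.47 in Ujumqin (adjusted p = 0.12, and 0.0271 without day 16 replicate 2) and -0.90 ± 0.47 in Hulunbuir (adjusted p = 0.148).

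The ETS factors ETV4 and ETV5, both transcriptional targets and effectors of FGF signalling, moved in opposite directions with age. ETV4 (chromosome 11, 42866010 to 42881048) was at 9.04, 4.15 and 6.66 FPKM in Ujumqin and 14.2, 10.3 and 12.2 in Hulunbuir at day 16, and at 16.6, 23.0 and 20.6 and 26.1, 25.1 and 24.4 at day 25. It rose by 1.75 ± 0.26 in Ujumqin (adjusted p = 0.000149) and by 0.89 ± 0.25 in Hulunbuir (adjusted p = 0.0154). ETV5 (chromosome 1, 199342816 to 199401907) was at 9.34, 5.29 and 14.9 in Ujumqin and 12.9, 5.09 and 7.83 in Hulunbuir at day 16. It was at 1.49, 0.702 and 1.97 and 2.05, 2.17 and 2.54 at day 25, a log2 change of -2.66 ± 0.45 in Ujumqin (adjusted p = 0.000411) and of -2.07 ± 0.44 in Hulunbuir (adjusted p = 0.00371). For both genes the ages do not overlap within a breed, and these 4 calls were kept under each other setting and with any 1 library left out. The ETV4 share of their summed FPKM went from 41.3% ± 9.46 to 93.3% ± 3.20 in Ujumqin and from 60.0% ± 7.34 to 91.8% ± 1.11 in Hulunbuir. Between the breeds ETV4 differed by 0.80 ± 0.32 at day 16 (adjusted p = 0.227, and 0.0478 in the 12-library fit) and by -0.0034 ± 0.14 at day 25 (adjusted p = 0.987). Its age changes differed by -0.85 ± 0.35 (adjusted p = 0.109, and 0.0359 without Ujumqin day 16 replicate 1). ETV5 was not called between the breeds (adjusted p = 0.753 and 0.401).

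**Figure D4:**
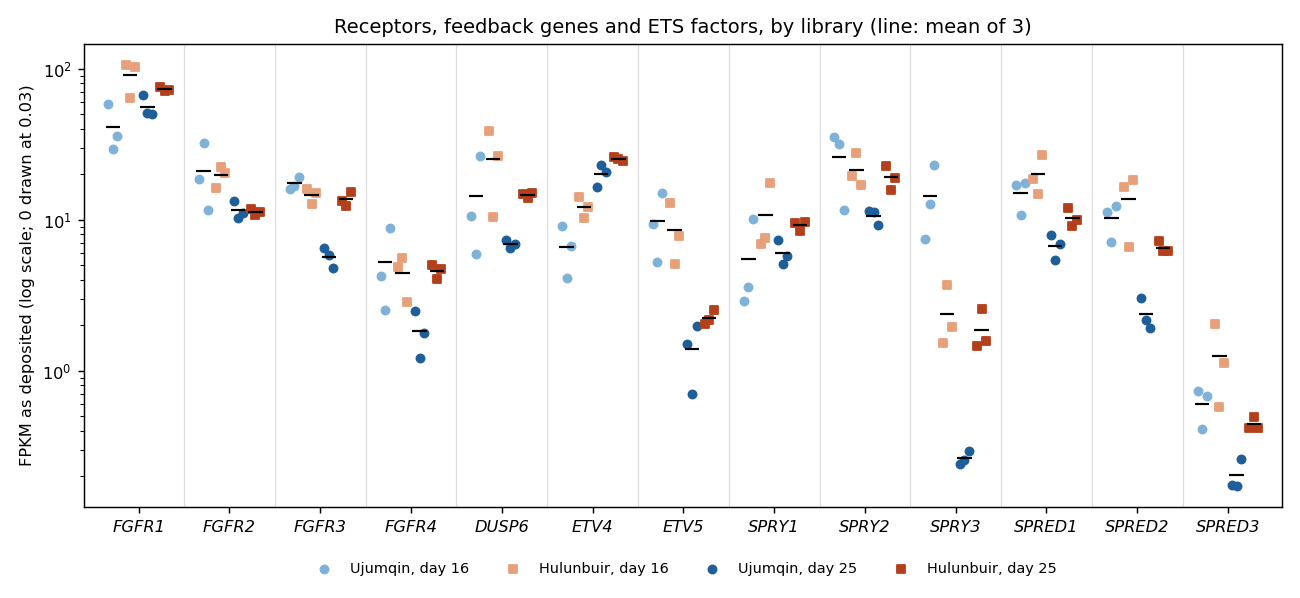
Deposited FPKM (log axis) of the receptors, feedback genes and ETS factors, 1 point per library in 4 groups with a line at each mean. SPRY3 lies between 0.242 and 0.294 FPKM in Ujumqin day 25 libraries and at 1.46 or above in every other library, and ETV4 and ETV5 part in opposite directions at day 25.

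**Figure D5:**
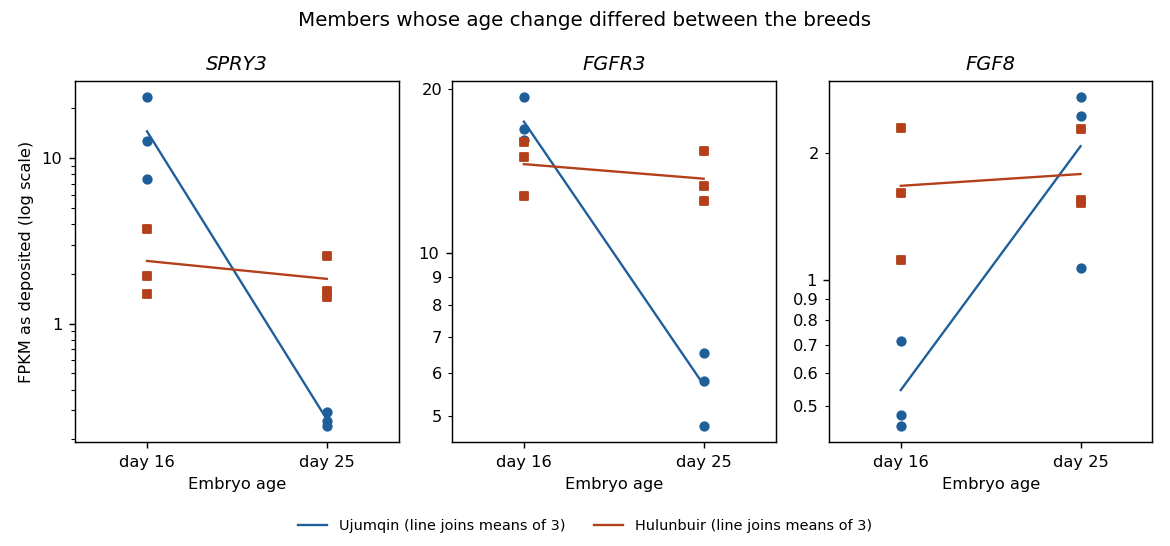
Deposited FPKM (log axes) of SPRY3, FGFR3 and FGF8 at day 16 and day 25, 1 point per library, with lines joining the means of the 3 libraries of a breed. Ujumqin means move from 14.5 to 0.264 for SPRY3, from 17.4 to 5.71 for FGFR3 and from 0.546 to 2.08 for FGF8. Hulunbuir means move from 2.39 to 1.86, from 14.5 to 13.7 and from 1.67 to 1.78.

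Among other genes of the pathway, co-receptors and carriers hold or present the ligand. Of 12 tested, 3 were higher and 1 lower in Hulunbuir at day 25, while 1 rose and 3 fell with age in Ujumqin and 0 rose and 3 fell in Hulunbuir. Among all genes 23.3% were higher and 22.7% lower at day 25, 30.7% rose and 32.9% fell with age in Ujumqin, and 18.9% rose and 21.6% fell in Hulunbuir. The median log2 change at day 25 was 0.07, beside 0.03 for all genes. KLB, the beta-klotho co-receptor of endocrine FGFs and a gene of liver, was at 21.1 ± 12 FPKM in Ujumqin day 16 embryos and 0.537 ± 0.106 at day 25, a log2 change of -5.12 ± 0.71 (adjusted p = 0.000105). In Hulunbuir it was at 5.20 ± 4.87 and 2.07 ± 0.0624 FPKM, and the age changes differed by 3.52 ± 0.88 (adjusted p = 0.0192). At day 25 it was higher in Hulunbuir by 1.61 ± 0.20 (adjusted p = 0.000427; 0.112 in the 12-library fit). The proteoglycan gene SDC4 was lower in Hulunbuir at day 25 (-1.51 ± 0.14, adjusted p = 0.000102) and fell with age in both breeds. GPC3, a glypican, was the most abundant of the list, with group means from 451 to 681 FPKM, and was not called by edgeR in the main comparisons. For breed at day 25 its adjusted p was 0.0732, and 0.0186 with DESeq2 and 0.0291 without Ujumqin day 25 replicate 1. For age in Ujumqin it was 0.0776, and 0.0162 without day 16 replicate 1.

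Heparan sulfate enzymes build and trim the sugar chains that FGFs need for binding. Of 10 tested, 2 were higher and 4 lower in Hulunbuir at day 25, 3 rose and 4 fell with age in Ujumqin, and 0 rose and 5 fell in Hulunbuir, with a median of -0.81 in the last, beside -0.04 for all genes. The Ujumqin counts lie near the 30.7% and 32.9% of all genes, and the other shares of all genes are 23.3% higher and 22.7% lower at day 25 and 18.9% risen and 21.6% fallen in Hulunbuir. HS2ST1, which adds the 2-O-sulfate, fell from 14.2 ± 7.19 to 1.07 ± 0.448 FPKM in Ujumqin (-3.56 ± 0.53, adjusted p = 0.000164) and from 8.84 ± 4.67 to 1.23 ± 0.556 in Hulunbuir (-2.95 ± 0.51, adjusted p = 0.00121). SULF2, which removes 6-O-sulfates outside the cell, rose in Ujumqin by 1.88 ± 0.25 (adjusted p = 6.82e-05), and its age changes differed by -1.68 ± 0.34 (adjusted p = 0.00797). EXTL3, a chain-starting enzyme, was higher in Hulunbuir at day 25 by 1.37 ± 0.19 (adjusted p = 0.00072).

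The 22 adaptor and RAS-ERK cascade genes carry the signal from receptor to nucleus. Hulunbuir embryos had 9 of them higher and 4 lower at day 25, beside 23.3% and 22.7% of all genes, with a median of 0.28, beside 0.03 for all genes. With age 4 rose and 11 fell in Ujumqin (median -0.48, beside 30.7% and 32.9% of all genes and a median of -0.07) and 4 rose and 6 fell in Hulunbuir (median -0.29, beside 18.9% and 21.6% and -0.04). SHC1, an adaptor and the most abundant of the list by mean FPKM, was higher in Hulunbuir at day 25 (0.62 ± 0.13, adjusted p = 0.00484). NRAS was lower (-0.72 ± 0.12, adjusted p = 0.00172). HRAS rose in both breeds, by 1.25 ± 0.20 (adjusted p = 0.00032) and 1.07 ± 0.20 (adjusted p = 0.00202).

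Of 13 other feedback and restraint genes, 5 were higher and 0 lower in Hulunbuir at day 25, 1 rose and 6 fell with age in Ujumqin, and 1 rose and 4 fell in Hulunbuir. The medians were 0.31, -0.997 and -0.54, beside 0.03, -0.07 and -0.04 for all genes, of which 23.3% were higher and 22.7% lower, 30.7% rose and 32.9% fell, and 18.9% rose and 21.6% fell. DUSP9, another ERK phosphatase gene, was at 81.8, 64.6 and 111 FPKM in Ujumqin and 34.2, 32.2 and 11.4 in Hulunbuir at day 16. At day 25 the order was the opposite, at 20.7, 22.05 and 15.5 in Ujumqin and 85.9, 92.1 and 85.8 in Hulunbuir. The day 25 difference was 1.85 ± 0.13 (adjusted p = 2.66e-05) and the age changes differed by 3.54 ± 0.54 (adjusted p = 0.00239). CBL, which marks activated receptors for destruction, fell in both breeds, with log2 changes of -3.62 ± 0.44 in Ujumqin (adjusted p = 4.27e-05) and -2.45 ± 0.42 in Hulunbuir (adjusted p = 0.00107). IL17RD, also called Sef and an inhibitor of FGF signalling, fell in Ujumqin from 6.34 ± 0.724 to 0.752 ± 0.306 FPKM (-2.92 ± 0.37, adjusted p = 5.1e-05). Its Hulunbuir mean was lower at day 25 as well, at 1.57 ± 0.203 FPKM against 5.90 ± 2.61 at day 16.

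Of 14 other ERK-responsive transcription factor genes, 5 were higher and 5 lower in Hulunbuir at day 25, with a median of -0.02. With age 2 rose and 5 fell in Ujumqin, and 1 rose and 2 fell in Hulunbuir. Of all genes 23.3% were higher and 22.7% lower at day 25, 30.7% rose and 32.9% fell in Ujumqin, and 18.9% rose and 21.6% fell in Hulunbuir. MYCN, a growth regulator of neural and other progenitors, averaged 8.12 ± 2.25 FPKM in Ujumqin and 30.7 ± 3.23 in Hulunbuir at day 25 (1.60 ± 0.18, adjusted p = 0.000265). FOSL1 (-3.69 ± 0.60, adjusted p = 0.0015) and the immediate early gene EGR1 (-1.38 ± 0.11, adjusted p = 6.78e-05; 0.3 in the 12-library fit) were lower in Hulunbuir at day 25. EGR1 is also induced by tissue dissociation, and it stood at 70.7 ± 68.4 FPKM in Ujumqin and 18.2 ± 20.3 in Hulunbuir at day 16. ETS1 fell in both breeds, with log2 changes of -1.55 ± 0.22 (adjusted p = 0.000111) and -0.95 ± 0.21 (adjusted p = 0.00523). At day 16, none of the genes of these 5 lists was called between the breeds by edgeR in the 6 libraries, and 3 of 12, 1 of 10, 2 of 22, 2 of 13 and 4 of 14 had an unadjusted p under 0.05.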

How the data were processed

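RNA-seq of 12 sheep embryo libraries was used. The labels' protocols name TRIzol for extraction and Illumina for sequencing. Per the submitters' processing notes, cutadapt 1.9 and FastQC were used with the Oar_v3.1 genome. No source used here gives the aligner, the counter or its use of strand. The deposited count columns hold whole, unscaled counts per gene. The deposited FPKM columns were scaled by the authors for gene length and library size. The length implied by count and FPKM ran from 664 bases for FGF5 to 4677 for FGF8, so levels between genes rest on how fully each is annotated.

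Genes that reached 1 FPKM in 3 or more of the 12 libraries were tested with edgeR 4.0.16 in R 4.3.3 (quasi-likelihood test, TMM scaling, two-sided, Benjamini-Hochberg adjustment over 14595 genes, threshold 0.05). Breed was compared in the 6 libraries of an age, and age changes and their difference between breeds in all 12 libraries with 4 group means. Standard errors were computed as the size of the log2 change over the square root of F. Alternatives were DESeq2 1.42.0, RLE and total-count scaling, other filters, other library sets, the replicate number as a block, voom with group weights (limma 3.58.1), and each library left out. Within groups the chi-square per degree of freedom between libraries was 16.5 to 610, so each library was counted on its own. Floors of 3 counts cover counting error only. At day 16 libraries of the 2 breeds with the same number deviated together from their group means (r = 0.156, 0.307 and 0.381 across genes). The labels state no pairing, and what the numbers mark is not known.

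The test was checked on simulated counts with 200 of 14595 genes changed. For the day 16 breed comparison it recovered 13% of 4-fold and 0% of 2-fold changes (1 of 14 calls false). The day 25 comparison recovered 93% and 62% (16 of 171 false), the Ujumqin age change 82% and 22% (7 of 111), the Hulunbuir age change 76% and 16% (10 of 102), and the difference of age changes 35% and 1% (6 of 42). The changed genes were drawn only from those above a floor in mean count, and all other genes were equal in all groups. In the data far more genes were called, except for breed at day 16. These rates need not hold there, nor for members with few counts such as FGF5 and FGF18.

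The members and the 5 pathway and 11 marker lists were chosen with earlier results of these data known. The rule names every member, gives those with a group mean of at least 1 FPKM (23) library by library, and takes from each pathway list the 2 largest called rises and falls and the gene of highest mean FPKM; not all of these are printed, and some are not reported here. Symbols came from the table, and 1300 further genes were named through a RefSeq gene table.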

Additional observations from a re-analysis of the deposited data

Results flagged for a closer look

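In 3 FGF genes the change from day 16 to day 25 differed between the breeds by the test of that difference (edgeR's quasi-likelihood test, Benjamini-Hochberg adjustment over 14595 genes). The values are the Hulunbuir log2 age change minus the Ujumqin one. For SPRY3 the difference was 4.94 ± 0.74 (adjusted p = 0.00205): all 3 Ujumqin libraries lay lower at day 25 than at day 16, and the Hulunbuir ages overlap. For FGFR3 it was 1.23 ± 0.21 (adjusted p = 0.00361), with the same pattern. For FGF8 it was -2.16 ± 0.60 (adjusted p = 0.028), with all 3 Ujumqin libraries higher at day 25 than at day 16 and the Hulunbuir ages overlapping. The FGF8 call was lost with voom (0.148) and without Ujumqin day 16 replicate 2 (0.0545), Hulunbuir day 16 replicate 1 (0.0597), Ujumqin day 25 replicates 2 (0.0822) or 3 (0.0779), or Hulunbuir day 25 replicates 1 (0.0739) or 3 (0.0731). Erythroid markers changed in the same libraries, as 8 of 9 had a higher age change in Hulunbuir, beside 8.89% of all genes. The part of these markers in the 3 results was not tested. No group had enough libraries for a check of single outlying libraries.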

How the results depend on the processing

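Over all other settings and left-out libraries, 1502 values of members' log2 changes kept direction and side of the threshold, 52 fell short of it, 42 newly passed it and 0 called values reversed. A further 53 uncalled values changed sign. For breed at day 16 the members called were 0 in the main result, 3 with DESeq2, 5 with all 12 libraries and 2 with voom. Among all genes the calls were 3, 1565, 2459 and 487. For breed at day 25, 8 members were called, and 3 with all 12 libraries, where the calls among all genes went from 6716 to 2440. Leaving out 1 library gave 2 to 5 members for the difference of age changes, beside 3. Among all genes these fits called 1561 to 3337, beside 2804. With total counts the day 25 split of all genes was 6049 higher and 1483 lower, beside 3397 and 3319, and that of members 11 and 0. For age in Hulunbuir the split was 3454 and 2144 with total counts, beside 2758 and 3155, and for the difference of age changes 1990 and 722, beside 1298 and 1506.

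With the replicate block, members called were 0 for breed at day 16, 7 at day 25, 14 for age in Ujumqin, 7 for age in Hulunbuir and 4, with FGFR1, for the difference of age changes. At day 16, where same-numbered libraries of the breeds correlated, the block called 293 of all genes. Elsewhere same-numbered libraries correlated between -0.0617 and 0.0912. Member calls kept throughout were 3 of 8 for breed at day 25, 10 of 14 and 6 of 8 for age, and 2 of 3 for the difference. The share of all genes that kept their call throughout was not counted. The depth limits genes such as FGF5 and FGF18 at day 16, with 0 to 46 counts in a library.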

Other observations

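The table lists 3 more FGF genes that are named by their description and not by a symbol, so the rule did not take them. FGF19, an endocrine FGF of gut and liver, varied widely between day 16 libraries: it was at 43.8, 7.70 and 6.26 FPKM in Ujumqin and 49.9, 52.8 and 14.1 in Hulunbuir. At day 25 it was at 2.29, 2.52 and 1.61 FPKM in Ujumqin and 2.94, 3.09 and 2.87 in Hulunbuir. It fell in both breeds by edgeR's quasi-likelihood test, with log2 changes of -3.05 ± 0.76 (adjusted p = 0.00453) and -3.94 ± 0.78 (adjusted p = 0.00258). Yolk sac and liver markers fell with age for 11 of 14 genes in Ujumqin, beside 32.9% of all genes. In Hulunbuir 7 of 14 fell and 3 rose, beside 21.6% and 18.9% of all genes. The part of these markers in the FGF19 change was not tested. FGF13, an intracellular FGF of neurons, was higher in Hulunbuir at day 25 (14.1 ± 1.24 against 6.50 ± 1.78 FPKM, SD, n = 3; log2 difference 0.78 ± 0.21, adjusted p = 0.0149). FGF14, of the same subfamily, stayed under 1 FPKM in all 12 libraries, with at most 0.967, and was not tested.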
